A study of Mus musculus with 9 samples.

Results

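Solute carrier genes encode membrane proteins that move small molecules across the cell surface or the membranes of organelles, either along a gradient or coupled to the flow of an ion, and without using ATP directly. In the liver they carry organic cations and anions, sugars, amino acids, fatty acids and metals between blood, hepatocyte and bile, and the mitochondrial members pass metabolites through the inner mitochondrial membrane. Hepatocytes are not alike along the path of the blood: cells next to the central vein make glutamine synthetase and take up ammonium and glutamate, and in perfused rat liver the uptake of alpha-ketoglutarate from the blood side is likewise known as a task of these last cells.

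The members described here were the probes of a mouse bead array whose name in the deposited table begins with Slc and a digit and whose deposited detection p-value was under 0.05 on at least 3 of the 9 arrays. Probes of Slc1a2, Slc38a3, Slc25a13, Slc25a15, Slc27a5, Slc10a1, Slc37a4 and Slc40a1, which serve nitrogen, bile acid, glucose and iron handling, were left out by name. This gave 250 probes for 186 genes, among 45281 probes on the array and 13532 genes tested. The table named 568 Slc probes in all: 14 had these names and 304 were detected on fewer than 3 arrays, 242 of them on none. Beyond the names, the rule used detection alone, though the members were chosen with earlier results of these data known. At its edge, 13 member probes were detected on exactly 3 arrays, with mean log2 intensities from 4.91 to 5.30, and 22 probes left out were detected on 2 arrays, with means from 4.72 to 5.11. In the following, 185 of these genes are described, of which 142 were detected on all 9 arrays. They were put into 10 substrate groups by family number, 181 transporters in all. Slc4a1ap, Slc7a6os, Slc9a3r1 and Slc9a3r2 share the name but are not transporters and were kept apart.

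The samples were mouse liver fixed on glass slides, with 3 arrays in each of 3 groups and no treatment or genotype given. PV was the glutamine synthetase subcompartment around the central vein, NPV was zones 1 and 2 of the hepatic acinus, and SC was the whole tissue scraped from a slide. PV and NPV were collected by laser capture microdissection, in which chosen cells are lifted from a section under a microscope. The sources used here give no strain, sex, age or number of animals, and do not say how PV cells were recognised. Each array carries a number from 1 to 3 in its label. Nothing says that the arrays came from separate animals, so the p-values reflect array-to-array spread alone, part of which may be technical.

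Between 37.1% and 41.3% of all probes were detected per array. Arrays that shared a label number deviated together, and those numbered 3 stood apart from the other 6: in 37.0% of all genes their 3 levels lay all above or all below the others. Values are therefore given array by array and within each number. Glul, the gene for glutamine synthetase that names the PV compartment, stood 4.94-fold above NPV there. The list of pericentral hepatocyte markers had a median log2 difference of 1.31 between PV and NPV (9 of 10 higher in PV) and the periportal list one of -0.56 (0 of 9 higher). Endothelial markers of the central vein, which PV encloses, were also higher in PV (7 of 8 listed genes measured, all 7 higher, median 1.39). Their summed intensity ran from 507 to 3106 on PV arrays, from 208 to 965 on NPV arrays and from 390 to 1405 on SC arrays, and Wnt9b, which defines these cells, was detected on only 2 arrays. Smooth muscle markers summed to 2185 to 15076, 1652 to 5515 and 1732 to 3652 in the same order (4 of 6 measured), with Cnn1 detected on no array and Tagln on 2. Of 10 stellate cell and fibroblast markers 8 were higher in PV than in NPV (median 0.32), with sums of 12429 to 18950, 12150 to 12941 and 13224 to 15359. Of 9 sinusoidal endothelial markers 8 were higher (median 0.11), of 7 Kupffer cell markers 5 (0.02), and of 3 cholangiocyte and 3 red blood cell markers 0 (-0.74 and -0.07).

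The first question was which carriers differ between the layer around the central vein and zones 1 and 2 of the acinus. Most members had similar levels in PV and NPV. The median difference of the 185 genes was -0.01 on the log2 scale, against 0.00 for all genes tested, with 89 members above 0 and 96 below. Apart from the bulk stood a dicarboxylate carrier and an organic cation carrier: Slc13a3 was 5.27-fold higher in PV and Slc22a3 3.77-fold. In samples of many cells, fewer cells of a type and less RNA per cell cannot be told apart. Over all genes, 0 members passed limma's adjusted p of 0.05, and 8 had an unadjusted p under 0.05 (4.32%), as had 2.25% of all genes. At the threshold 0.0222% of all genes were called higher in PV (3 genes) and 0% lower. With the label number as a block these 2 members rose and 0 fell, where 0.310% of all genes were called higher (42 genes) and 0.00739% lower (1 gene). Without the arrays numbered 3, Slc13a3 passed without the block and Slc13a3 and Slc13a4 with it. Of all genes 24 and 41 were called in these 2 fits.

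**Figure D1:**
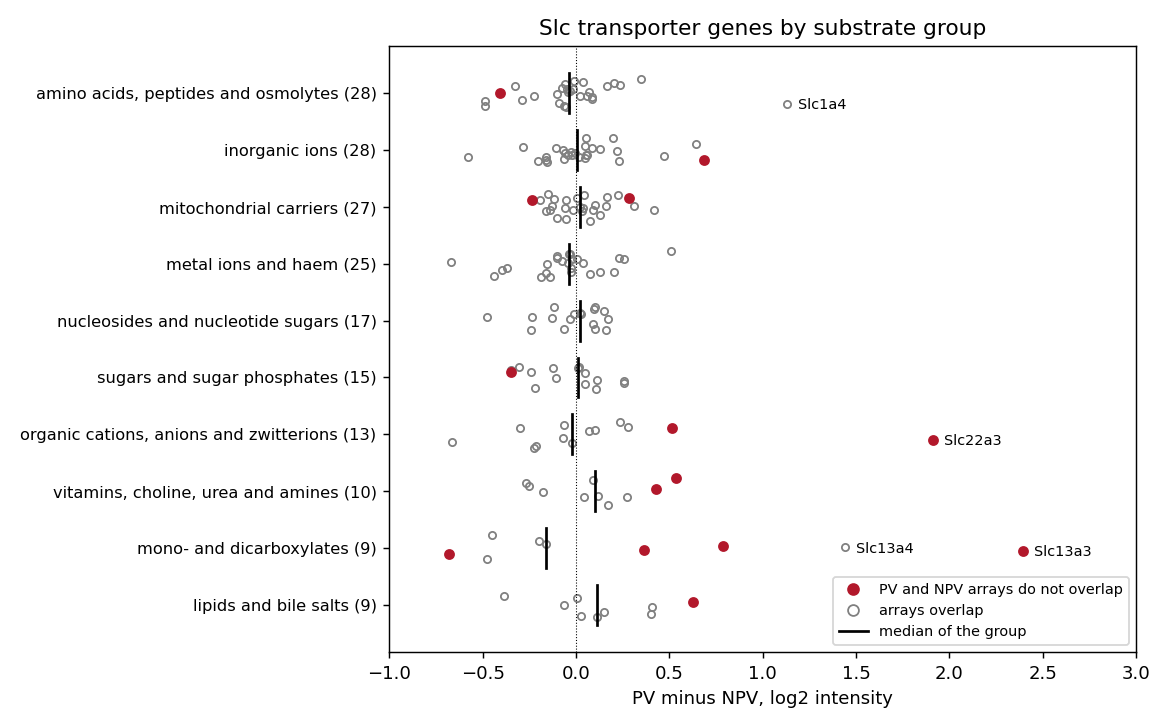
PV minus NPV difference in log2 intensity (horizontal axis) for each of the 181 Slc transporter genes, by substrate group with the number of genes in brackets. Filled points are genes whose 3 PV and 3 NPV arrays do not overlap, open points those that overlap, and bars are group medians, which lie between -0.16 and 0.11, while Slc13a3, Slc22a3, Slc13a4 and Slc1a4 lie far to the right.

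Since Slc13a3 and Slc22a3 carried the largest differences, the 250 bases upstream of their start sites are shown, from RefSeq, build GRCm38.p6. They are the windows in which a reader can look for CTTTGA, the core letters to which transcription factors of the Wnt pathway bind and which are set in capitals. The Slc13a3 window is chr2:165473198-165473447, minus strand, and the Slc22a3 window is chr17:12507705-12507954, minus strand, both written 5′ to 3′ along the gene.
Slc13a3: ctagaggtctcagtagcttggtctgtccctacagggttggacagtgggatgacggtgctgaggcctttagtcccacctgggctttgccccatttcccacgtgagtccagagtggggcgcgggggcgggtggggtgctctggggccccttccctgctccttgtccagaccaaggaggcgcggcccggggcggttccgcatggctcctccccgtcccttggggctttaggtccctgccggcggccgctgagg
Slc22a3: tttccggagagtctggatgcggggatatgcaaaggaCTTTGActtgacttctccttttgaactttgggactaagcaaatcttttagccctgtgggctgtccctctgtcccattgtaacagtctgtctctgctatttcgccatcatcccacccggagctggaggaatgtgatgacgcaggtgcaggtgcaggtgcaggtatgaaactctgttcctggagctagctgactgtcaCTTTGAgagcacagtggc
The Slc22a3 window holds CTTTGA at bases -214 to -209 and -18 to -13 before the start, and the Slc13a3 window holds none. On either strand (CTTTGA or its reverse complement TCAAAG) the motif lies in 13.8% of the 32851 promoter windows of the table and in 15.3% of the 203 windows of 148 members, so it is common. The longer forms CTTTGAT and CTTTGAA, in which the short one is contained, and AGGTCA, a nuclear receptor half-site, were in neither window, against 3.21%, 4.46% and 14.0% of all windows. A match is a run of letters and not a site shown to be bound.

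Slc13a3 encodes a sodium-coupled carrier of dicarboxylates such as succinate and alpha-ketoglutarate. Its log2 intensity was 9.47, 9.04 and 9.64 on PV arrays 1, 2 and 3, 6.64, 6.89 and 7.42 on the NPV arrays, and 7.58, 7.04 and 8.56 on the SC arrays. Every PV array lay above every other array, while NPV and SC overlapped. The PV mean of 9.38 ± 0.31 (SD, n = 3) exceeded the NPV mean of 6.99 ± 0.40 by 2.40 (SE 0.38; limma adjusted p = 0.185). With the block the adjusted p was 0.00303 (SE 0.21). Over the 15 settings with the block it ran from 5.11e-06 to 0.0355, and over the 18 without it from 0.0156 to 1.00. Within the numbers the difference was 2.82, 2.15 and 2.22. The other member probe of the gene gave 2.28.

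Slc22a3 encodes a low-affinity carrier of organic cations, monoamines among them. It read 8.54, 7.24 and 8.15 in PV, 6.62, 6.02 and 5.55 in NPV, and 6.77, 6.47 and 6.33 in SC. The 3 PV arrays were again the highest of the 9, with the PV array numbered 2 closest to the rest. The difference between PV (7.98 ± 0.66) and NPV (6.06 ± 0.54) was 1.91 (SE 0.37; limma adjusted p = 0.594). The block brought the adjusted p to 0.0173. It ran from 5.30e-05 to 0.162 over the 15 settings with the block and from 0.0460 to 1.00 over the 18 without it. It rests on a single probe, and with the block it lost the call without PV 1 (adjusted p = 0.162), NPV 1 (0.111), NPV 3 (0.0829) or all arrays numbered 3 (0.0969). On PV arrays 1, 2 and 3 the summed intensity was 3106, 2355 and 507 for the central vein endothelial markers, 15076, 2185 and 2504 for the smooth muscle markers and 18950, 16720 and 12429 for the stellate cell and fibroblast markers. All 3 sums peaked on PV array 1, where Slc22a3 was also highest, while Slc13a3 was highest on the array numbered 3 in PV, NPV and SC and its difference between PV and NPV was largest in number 1. The part of these markers in the differences of both carriers was not tested.

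**Figure D2:**
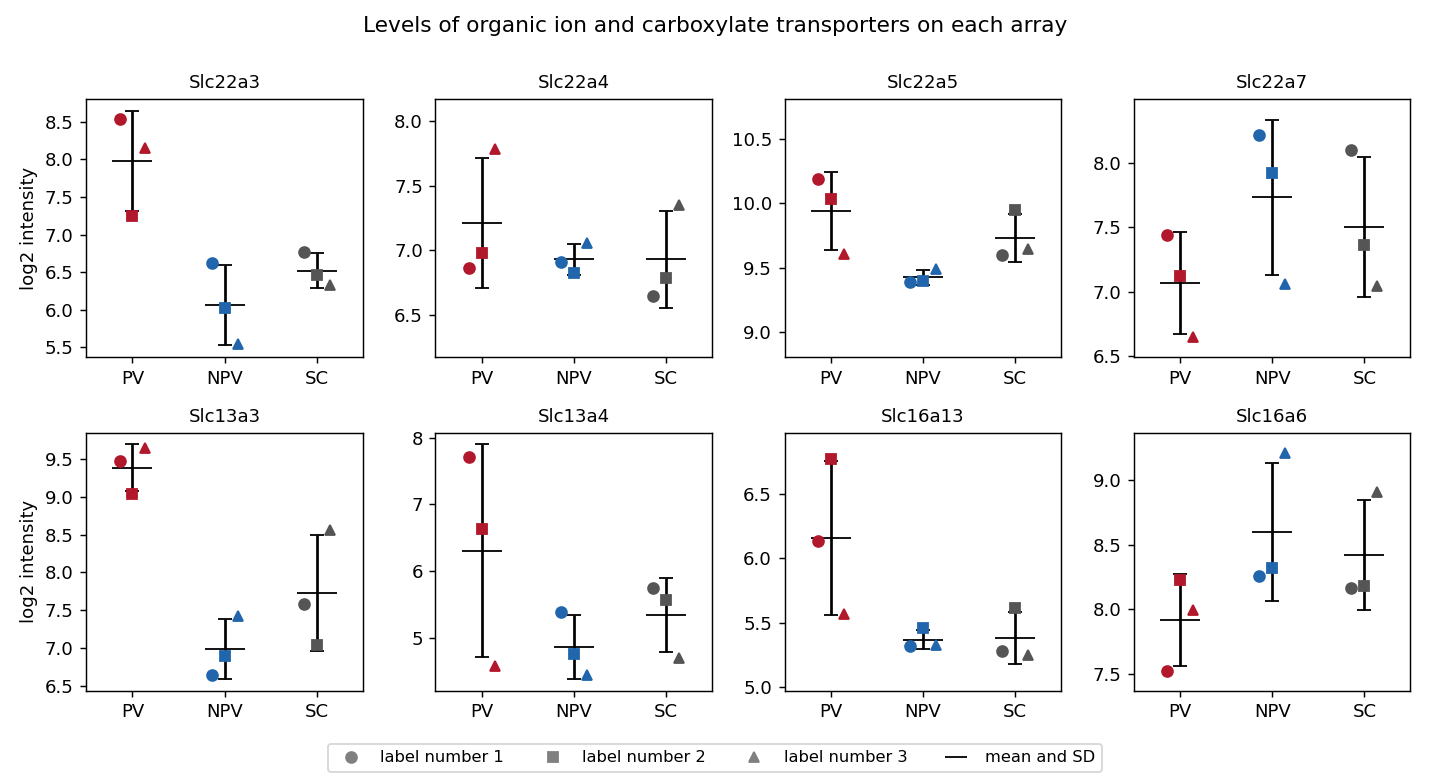
Log2 intensity (vertical axis, a separate scale for each gene) on each array for 8 carriers of organic ions and carboxylates, with PV in red, NPV in blue and SC in grey, the symbol giving the label number, and bars the mean and SD. For Slc13a3 and Slc22a3 all 3 PV arrays lie above all NPV and SC arrays, whereas Slc22a7 lies lower in PV with overlap.

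Of the 13 carriers of organic cations, anions and zwitterions 6 were above 0 and 7 below (median -0.02). With the block 1 rose, Slc22a3. The brightest was Slc17a2, of the family of phosphate and organic anion carriers, at 12.20 ± 0.58 in PV, 12.43 ± 0.36 in NPV and 12.42 ± 0.50 in SC, with overlap. Slc22a5, the carnitine carrier, was 9.94 ± 0.30 in PV, 9.42 ± 0.06 in NPV and 9.73 ± 0.19 in SC. Its PV and NPV arrays did not overlap (difference 0.52, SE 0.19), yet its other probes gave 0.25 and -0.06, the widest spread between the probes of any member. Slc22a7, an organic anion carrier, read 7.44, 7.12 and 6.65 in PV and 8.22, 7.92 and 7.06 in NPV. The arrays overlap between numbers, but within each number PV was lower, by -0.78, -0.79 and -0.41 (limma adjusted p = 0.160 with the block). Slc22a4, the ergothioneine carrier, differed by 0.28, Slc22a18 by 0.07 and Slc22a15 by -0.02.

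The 9 carriers of mono- and dicarboxylates had the lowest median of the groups (-0.16; 4 above 0 and 5 below) although they hold the member with the largest difference. Besides Slc13a3 none passed. Slc13a4, a sodium-sulphate carrier, was chosen after its values were seen. It read 7.71, 6.63 and 4.57 in PV, 5.39, 4.76 and 4.45 in NPV, and 5.74, 5.57 and 4.70 in SC. It was high on PV arrays 1 and 2 and near background on all arrays numbered 3, so the PV arrays overlapped the others and its SD in PV was 1.59. The difference was 1.44 (SE 0.70 without the block), and limma's adjusted p was 0.256 with the block. The central vein endothelial markers summed to 3106, 2355 and 507 on the same PV arrays, and their part in this result was not tested. Slc13a2, which carries dicarboxylates and also citrate, differed by -0.47, with PV lower in 2 of 3 numbers.

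Among the monocarboxylate carriers of family Slc16, Slc16a13 read 6.14, 6.77 and 5.57 in PV and 5.32, 5.46 and 5.33 in NPV. All PV arrays lay above all NPV arrays, by 0.79 on average (SE 0.28, limma adjusted p = 0.9999), but only just on the array numbered 3. The block brought the adjusted p to 0.225. Slc16a10, a carrier of aromatic amino acids, was also separate (0.37, SE 0.17). Slc16a6, known in zebrafish liver as an exporter of the ketone body beta-hydroxybutyrate, lay the other way, at 7.92 ± 0.36 in PV, 8.60 ± 0.53 in NPV and 8.42 ± 0.43 in SC. Its highest PV array, 8.23, was below its lowest NPV array, 8.26 (difference -0.68, SE 0.33, limma adjusted p = 0.9999). The adjusted p was 0.317 with the block, and the other probe of Slc16a6 gave a difference of -0.66.

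Over all members, the PV and NPV arrays did not overlap for 10 genes that were higher in PV and 4 that were lower, or 5.41% and 2.16% of 185, beside 2.93% and 2.94% of all genes. The 10 were Slc13a3, Slc22a3, Slc16a13, Slc26a4, Slc27a1, Slc23a3, Slc22a5, Slc44a4, Slc16a10 and Slc25a45, and the 4 were Slc16a6, Slc7a8, Slc45a4 and Slc25a44. Slc27a1 and Slc44a4 passed the detection rule only through PV, so their place among the 10 is partly set by the choice. At an unadjusted p under 0.05 there were 26 members with the block (14.1%), against 9.39% of all genes. All 3 numbers gave a higher PV level for 30 members and a lower one for 31, or 16.2% and 16.8%, beside 16.2% and 17.4% of all genes. That share is near the background.

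**Figure D3:**
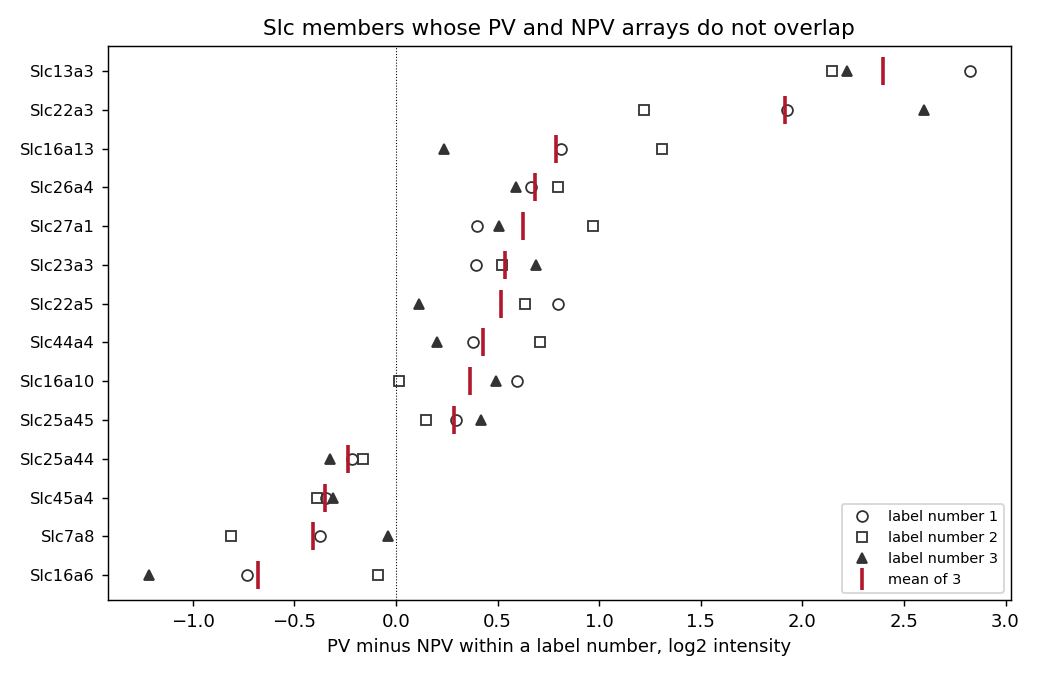
PV minus NPV difference in log2 intensity within each label number (horizontal axis) for the 14 members whose PV and NPV arrays do not overlap, with symbols for the numbers and a bar for their mean. Slc13a3 and Slc22a3 differ by 1.22 or more in every number, while Slc16a10, Slc22a5 and Slc7a8 come close to 0 in at least 1 number.

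Carriers of inorganic ions (28 genes, median 0.01) were split evenly around 0. Slc26a4, pendrin, an exchanger of chloride, iodide and bicarbonate, was 6.21 ± 0.23 in PV, 5.53 ± 0.22 in NPV and 5.58 ± 0.26 in SC. All PV arrays were above all others, by 0.68 over NPV (SE 0.20, limma adjusted p = 0.9999, or 0.120 with the block). Slc8a1, a sodium-calcium exchanger, differed by 0.47 with overlap, and Slc12a4, a potassium-chloride cotransporter detected on 5 of 9 arrays, by -0.58. Slc4a4, the sodium bicarbonate cotransporter, was 12.22 ± 0.35 in PV and 12.02 ± 0.63 in NPV. The array numbered 3 was the highest in both regions, and PV lay above NPV in numbers 1 and 2 (0.43 and 0.31) and below it in number 3 (-0.14).

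The 9 carriers of lipids and bile salts had a median of 0.11, with 7 above 0. Slc27a1, a fatty acid transport protein, was the only member detected in a single group: on 3 of 3 PV arrays (5.23, 5.77 and 5.51) and on 0 of 6 NPV and SC arrays. Because it passed the detection rule through PV alone, its position is partly set by the choice. Measured against the lowest detected level of those arrays it was at least 1.26-fold higher than in NPV and at least 1.27-fold higher than in SC. Slc27a2, the fatty acid carrier that also activates very long chains, was 14.83 ± 0.20 in PV, 14.81 ± 0.16 in NPV and 14.84 ± 0.06 in SC, and the 3 groups overlapped (difference between PV and NPV 0.03, SE 0.16). Slc27a6 and Slc10a7 differed by 0.40 and -0.38, with overlap for both.

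Carriers of vitamins, choline, urea and amines (10 genes, median 0.10) included 2 with separate groups. Slc23a3, of the nucleobase and ascorbate family, was 0.53 higher in PV than in NPV (SE 0.22), and was detected on 1 of 3 NPV arrays. Slc44a4, a choline-like transporter known in human colon for the uptake of thiamine pyrophosphate, was at least 1.15-fold higher than in NPV, where it was detected on 0 arrays. With 3 PV arrays and 1 SC array it, too, passed the detection rule only through PV, so its position is partly set by the choice. Slc46a3, a lysosomal carrier, was 12.17 ± 0.17 in PV and 12.43 ± 0.26 in NPV, with overlap.

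In the amino acid, peptide and osmolyte group 11 of 28 genes were above 0 and 17 below (median -0.04, beside 0.00 for all genes, of which 6817 were above 0 and 6715 below), and 0 passed with the block. Slc7a8, a carrier of neutral amino acids, read 5.40, 5.31 and 5.52 in PV and 5.78, 6.12 and 5.56 in NPV. Its PV arrays were all lower, although the difference within number 3 was only -0.04 (mean -0.41, SE 0.24). Slc1a4, another carrier of neutral amino acids, chosen after its values were seen, differed by 1.13, or 1.60, 1.00 and 0.79 within the numbers (limma adjusted p = 0.0839 with the block), and its groups overlapped, with levels on the arrays numbered 3 4.40-fold those on the others. Slc38a4, a sodium-coupled amino acid carrier of hepatocytes, was 13.16 ± 0.09 in PV and 13.26 ± 0.27 in NPV. Slc43a2 and Slc6a15, both amino acid carriers near background, differed by -0.48 and -0.49, and Slc6a4, the serotonin carrier, by -0.29. The other Slc43a2 probe gave only -0.05.

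Of the metal and haem carriers 8 of 25 were above 0 and 17 below, with a median of -0.04 and 0 that passed with the block. Neither list was tested for a direction, and both medians are smaller than the 0.30 by which median scaling moves that of all genes. Slc39a4, a zinc importer, read 10.91, 10.98 and 11.62 in PV and 11.27, 11.26 and 12.09 in NPV. The arrays numbered 3 were highest in both regions, and PV was lower within each number (-0.36, -0.28 and -0.46; limma adjusted p = 0.323 with the block). Slc41a2, a magnesium carrier, differed by -0.67 (SE 0.44), and Slc30a10, a manganese exporter chosen after its values were seen, by -0.44, lower in PV in 3 of 3 numbers. Slc31a2 lay the other way, higher in PV by 0.51 with overlap. Slc31a1, the copper importer, was 12.22 ± 0.11 and 12.25 ± 0.06, without a difference beyond the spread between arrays.

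The mitochondrial carriers of family Slc25 (27 genes, median 0.02) were spread evenly around 0: 15 were above it and 12 below, and 0 reached an unadjusted p under 0.05 by limma, with or without the block. Slc25a5, an exchanger of ADP and ATP, was 14.27 ± 0.12 in PV, 14.27 ± 0.06 in NPV and 14.25 ± 0.04 in SC. Slc25a45 was 0.29 higher in PV (SE 0.15) and Slc25a44, a carrier of branched-chain amino acids, was lower (-0.23, SE 0.13), in both cases without overlap. Under median scaling in place of quantile normalization, which moves the median of all genes by 0.30, Slc25a44 turned to 0.12. Slc25a24, a carrier of ATP, magnesium and phosphate, differed by 0.42 with overlap.

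Nucleoside and nucleotide sugar carriers (17 genes, median 0.02) and sugar carriers (15 genes, median 0.01) held no member that passed. Slc2a2, the glucose carrier of hepatocytes, was 12.62 ± 0.15 in PV, 12.74 ± 0.22 in NPV and 12.62 ± 0.06 in SC, and the groups overlapped. Slc45a4 was lower in PV without overlap (-0.35, SE 0.22; -0.35, -0.39 and -0.31 within the numbers). Slc35a1, the carrier of CMP-sialic acid into the Golgi, differed by -0.47 with overlap and Slc35c1, that of GDP-fucose, by -0.24. Slc2a10 differed by -0.24, and on the other side lay Slc5a1 at 0.26 and Slc35a3 at 0.16, all with overlap. The 4 genes that share the name without being transporters had a median of -0.02.

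Other membrane transporters were counted beside the Slc members by their names (Slco, Abc, Aqp and Rh genes; 50 genes). Between PV and NPV 0 of them passed by limma and 2 had an unadjusted p under 0.05; with the block 1 rose: Rhbg, which carries ammonium, 2.78 higher on the log2 scale. Their median difference was 0.04, with 28 above 0 and 22 below.

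The next comparison set PV against the whole tissue of SC, and the last set NPV against it. They share arrays with the first, so that their values stand side by side and are not independent. Between PV and SC 0 members passed by limma and 5 had an unadjusted p under 0.05 (17 with the block), as had 1.17% of all genes (6.21% with the block), where 0% of all genes were called in either direction. Slc27a1, which passed the detection rule only through PV, was among the 5. With the block Slc13a3 rose (0.0813% of all genes were called higher, 11 genes), being 3.15-fold higher in PV (log2 1.66, SE 0.38 without the block). The adjusted p of this rise was 0.0484 in limma's fit with the block. It ran from 0.000592 to 0.546 over the 15 settings with the block and from 0.0790 to 1.00 over the 18 without it. When single arrays were left out of this fit, the call held only without PV 3 (adjusted p = 0.0363) or NPV 2 (0.0346), and reached 0.546 without PV 1. Slc22a3 was 2.74-fold higher in PV than in SC (log2 1.46, SE 0.37, limma adjusted p = 0.9999, or 0.155 with the block).

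For 8 members the PV arrays lay all above the SC arrays and for 0 all below (4.32% and 0%, beside 1.74% and 1.96% of all genes). Slc13a3, Slc22a3, Slc26a4 and Slc27a1 were among the 8 and were separate from NPV too. Of these, Slc27a1 passed the detection rule only through PV. The other 4 were Slc41a3, a magnesium carrier (0.55, SE 0.24), Slc10a5, of the bile acid carrier family (0.40; it passed the detection rule only through PV), Slc35a3, which brings UDP-N-acetylglucosamine into the Golgi (0.37), and the peroxisomal carrier Slc25a17 (0.08). Slc41a3 read 5.44, 6.09 and 5.32 in PV, 5.49, 6.02 and 5.42 in NPV, and 5.10, 4.93 and 5.18 in SC. All PV and NPV arrays were above all SC arrays.

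Between NPV and SC 0 members passed with or without the block, and 0% of all genes passed in either fit. At an unadjusted p under 0.05 there were 15 members with the block and 4 without it, beside 6.62% and 1.56% of all genes. The NPV arrays were all above the SC arrays for 3 members and all below for 3 (1.62% for each, beside 1.89% and 2.32% of all genes). These were Slc41a3 (0.57), Slc6a4 (0.52, at least 1.12-fold, with detection on 2 NPV, 1 PV and 0 SC arrays) and Slc25a44 (0.17) on one side, and Slc7a7, an exchanger of cationic and neutral amino acids (-0.42), Slc26a6, an anion exchanger (-0.36), and Slc22a5 (-0.30) on the other. Slc6a4 passed the detection rule only through its NPV arrays. Its place among the 3, and among the 4 with an unadjusted p under 0.05, is therefore partly set by the choice. The SC mean lay between the PV and NPV means for 81 of the 185 members (43.8%) and for 38.3% of all genes. Slc13a3 differed by -0.74 between NPV and SC (SE 0.38) and Slc22a3 by -0.46 (SE 0.37), with overlapping arrays for both.

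Several probes measured 47 of the member genes. Between PV and NPV the probes of 29 genes had the same sign and those of 18 had opposite signs, and the median range between probes of a gene was 0.14 on the log2 scale. Slc13a3 and Slc16a6 each had another member probe with the same sign and a difference of similar size, whereas Slc22a3 had none to set beside it.

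Levels of many carriers also moved with the label number. For 71 members (38.4%) the 3 arrays numbered 3 lay all above (39 members, beside 19.0% of all genes) or all below (32 members, beside 18.0%) the other 6, a share near that of all genes. The members named next were picked for the size of this difference, with their values in view. Slc25a30, a mitochondrial carrier, ran from 5.52 to 5.69 on arrays numbered 3 and from 7.38 to 8.05 on the others, and was 4.33-fold lower. Slc38a2, an amino acid carrier induced by amino acid starvation, ran from 10.84 to 11.05 against 12.26 to 12.91 (3.23-fold lower), and Slc20a1, a phosphate carrier, was 3.10-fold lower. In the other direction Slc1a4 was 4.40-fold higher on arrays numbered 3, Slc45a3 3.64-fold, Slc35d2, a Golgi nucleotide sugar carrier, 3.18-fold and Slc30a10 2.80-fold. What the number stands for is not given in the labels.

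**Figure D4:**
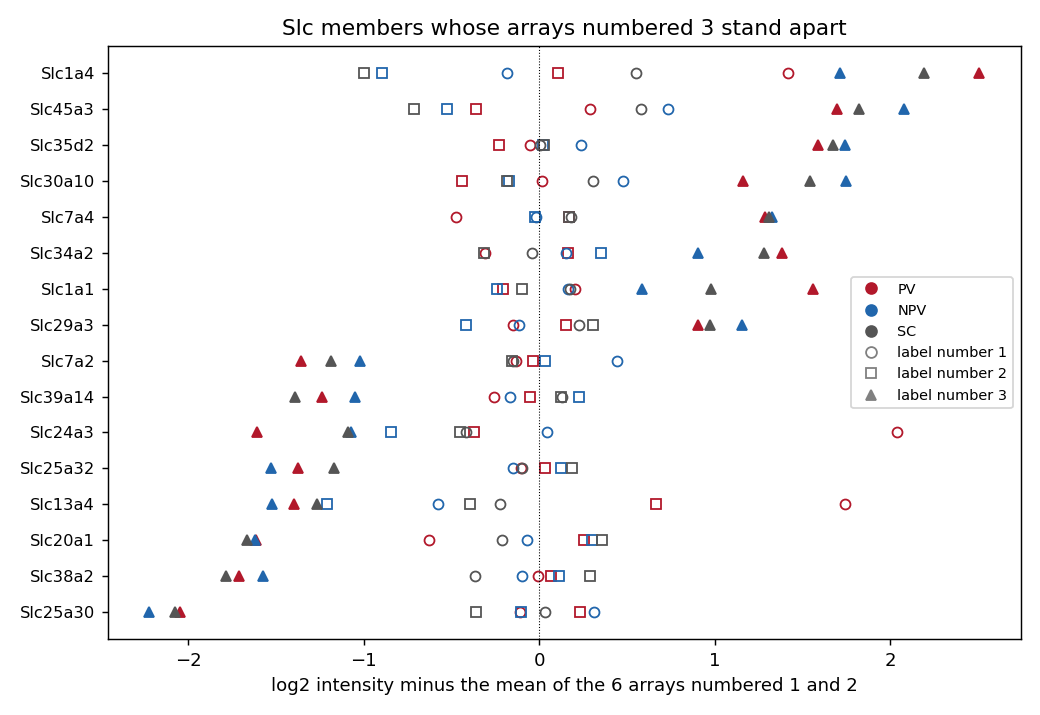
Log2 intensity of each array minus the mean of the 6 arrays numbered 1 and 2 (horizontal axis) for 16 members whose arrays numbered 3 (triangles) lie all above or all below the rest, with colours for the groups and open symbols for numbers 1 and 2. The triangles of PV, NPV and SC lie together, to the left for Slc25a30 and to the right for Slc1a4, apart from the circles and squares.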

How the data were processed

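Gene expression was measured on single-colour (Cy3) Illumina bead arrays in 9 mouse liver samples. Per the file headers, the deposited scanner table gives an intensity and a detection p-value per probe and array, not normalized between arrays (medians 71.7 to 100.2), and the submitters' processing notes name BeadStudio 3. The authors' second table holds processed intensity on a linear scale (array medians 80.59 to 80.65) with the ranks of the scanner table. The sources used here do not say how it was scaled, and it served as an alternative.

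Groups came from the sample titles. Background was corrected with limma 3.58.1 (R 4.3.3, neqc, offset 16, background inferred from the detection p-values), then quantile normalized and put on the log2 scale. Only probes detected at p under 0.05 on at least 3 arrays were kept, and each gene was represented by its brightest probe (13532 genes). Of the 45281 probes 29370 were named by accession, 3678 by symbol and 3273 by synonym through RefSeq GRCm38.p6, and 8960 kept the name in the file. Another 42 detected probes carry an Slc name only in RefSeq and are no members, and 5 members (Slc22a15, Slc38a10, Slc45a4, Slc47a1 and Slc7a6os) are represented by a member probe that is not the brightest of the gene. Substrate groups follow family numbers, so that a family member with another substrate stays with its family.

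Comparisons were contrasts in a limma model of 3 group means over all 9 arrays, 2-sided, with 6 residual degrees of freedom and Benjamini-Hochberg adjustment over all genes at 0.05. Folds are ratios of geometric means, drawn towards 1 for dim genes by the offset. A gene undetected on every array of its dimmer group is given a bound against the lowest detected level there. The smallest exact permutation p for 3 against 3 arrays is 0.1. The label numbers pair the samples: deviations of same-numbered arrays from their group means correlated at 0.58 to 0.885 across genes. Values with the number as a block (4 residual degrees of freedom) are therefore given too. For some genes the adjusted p with the block is given without that of the fit lacking it. An SE is that of the fit without the block unless stated. Precision is limited by the number of arrays. The script was tested on simulated data. Genes were named by rule: Slc13a3 and Slc22a3, every member called in either fit, up to 5 members per direction without overlap by fold, and per group the brightest member and up to 3 by smallest p between PV and NPV. Slc13a4, Slc13a2, Slc22a4, Slc22a18, Slc22a15, Slc10a5 and Slc25a17 fall outside this rule and were named with their values in view. Other further genes are marked where they are named. Of the 186 member genes 1 is not reported here and enters only the fits and counts over all genes. The members, lists and tests were chosen with earlier results of these data known. Alternatives were the block, the authors' table, median scaling, normexp with an offset of 50, other detection filters, every probe tested, groups compared alone, and arrays left out.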

Additional observations from a re-analysis of the deposited data

How the results depend on the processing

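The label numbers pair the samples, and the replicate block changed calls as follows. Between PV and NPV the count of Slc members called was 0, and 2 with the block. It was 0 with the authors' table, normexp or no filter on dim probes, 1 under median scaling (Slc22a3) and 1 without the arrays numbered 3 (Slc13a3). With the block it was 3 with the authors' table, 3 with normexp, 8 under median scaling, 2 with every probe tested and 2 without the arrays numbered 3. Leaving out 1 array at a time gave 0, and 1 to 5 with the block. Over all 13532 genes, 3 were called, 6 with the authors' table, 6 with normexp, 8 under median scaling and 24 without the arrays numbered 3. With the block 43 were called, 41 without the arrays numbered 3, 94 with the authors' table, 89 with normexp and 413 under median scaling. Testing every probe with the block called 64 of 19425. Leaving out 1 array at a time called 0 to 6 genes, and 14 to 78 with the block. Between PV and SC the count of Slc members was 0, and 1 with the block. With the block it was 2 for the authors' table, median scaling and normexp and 1 with every probe tested. It was 0 to 2 with 1 array left out. Over all genes 11 were called with the block, 31 for the authors' table, 51 under median scaling and 31 with normexp. With every probe tested 16 were called, and 0 to 30 with 1 array left out. Between NPV and SC the count of Slc members stayed at 0 in every setting run. Among the other transporters PV against NPV gave 0, 1 with the block, 1 under median scaling, 1 with detection on all 9 arrays and 2 without the arrays numbered 3. With the block these were 2 for the authors' table, 5 under median scaling, 2 with normexp, 1 with every probe tested, 2 without the arrays numbered 3, and 1 to 2 with 1 array left out. Between PV and SC they were 1 with the block, and with it 1 for the authors' table, 2 under median scaling, 1 with normexp, 1 with every probe tested and 0 to 1 with 1 array left out. NPV against SC gave 1 under median scaling with the block, where 2 of all genes were called. With detection on all 9 arrays 7 of 10135 genes were called between PV and NPV. With no filter on dim probes 4 of 28891 genes were called in this comparison. Testing every probe without the block called 2 of 19425, and the groups compared alone gave 0. Without the arrays numbered 3, 3 genes were called between PV and SC in both fits. Between NPV and SC 1 gene was called with the block for the authors' table, and 1 with normexp.

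Under median scaling the median of all genes shifted by 0.30 (PV against NPV), 0.15 (PV against SC) and -0.14 (NPV against SC). With it, block or not, PV minus NPV turned to 0.082 for Slc17a2, 0.12 for Slc25a44, 0.057 for Slc26a6, 0.19 for Slc2a2, 0.29 for Slc31a1, 0.28 for Slc35b1, 0.10 for Slc35c1, 0.18 for Slc38a4, 0.20 for Slc41a3 and 0.050 for Slc46a3, and NPV minus SC to -0.010 for Slc25a44. Without the arrays numbered 3, Slc41a3 turned to 0.0088 in both fits. With 1 array left out, PV minus NPV ran from -0.42 to 0.11 for Slc17a2, -0.054 to 0.059 for Slc25a5, -0.20 to 0.044 for Slc26a6, -0.088 to 0.11 for Slc27a2, -0.20 to 0.0078 for Slc2a2, -0.080 to 0.024 for Slc31a1, -0.031 to 0.28 for Slc35a3, -0.15 to 0.070 for Slc35b1, -0.26 to 0.16 for Slc41a3 and -0.11 to 0.52 for Slc4a4. With the block as well, the sign turned for Slc25a5 without PV 2 (-0.032) or NPV 2 (-0.00976), Slc26a6 without PV 3 (0.012) or NPV 2 (0.088), Slc27a2 without PV 2 (-0.027), Slc31a1 without PV 1 (0.00655), Slc35a3 without NPV 2 (-0.0087), Slc35b1 without PV 1 (0.093) or NPV 1 (0.022), Slc38a4 without PV 2 (0.025) and Slc41a3 without PV 1 (0.030), PV 3 (0.089) or NPV 2 (0.079). Over all alternatives 55 values of named genes changed sign, 44 newly passed the threshold and 1672 kept both sign and side. Why they changed was not tested. Levels near background limit what dim members can show.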
